A study of Mus musculus with 2 samples.

Results

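The miR-23, miR-27 and miR-24 microRNAs (miRNAs) are encoded in 2 paralogous clusters of 3 hairpins each, and they were measured here in knee joint cartilage of a Col2a1Tsc1KO sample and of a control sample. The 7 mature miRNAs described are mmu-miR-23a-3p, mmu-miR-23b-3p, mmu-miR-27a-3p, mmu-miR-27b-3p, mmu-miR-24-3p, mmu-miR-24-2-5p and mmu-miR-24-1-5p. They were chosen by name, but with earlier results of these data known, and are 7 of the 1247 mouse miRNAs with probes on the array. The Col2a1Tsc1KO sample carried a deletion of Tsc1 that the submitters describe as Col2a1-specific, Col2a1 being the collagen gene whose promoter is active in cartilage; the sources used here do not name the promoter or Cre line. The control sample is labelled wildtype. Both samples came from male mice aged 8 weeks, and the number of mice in each is not stated. RNA was extracted from washed articular cartilage that had been peeled off the joint. Each sample was hybridised to 1 one-colour Agilent array, with both arrays on 1 slide, so genotype, sample and place on that slide cannot be told apart, no difference has a replicate check, and no p-value was computed. The loss of Tsc1 could not be checked on arrays that read miRNAs alone.

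Each hairpin cluster is transcribed as 1 long primary transcript, which Drosha and then Dicer cut into mature miRNAs. Argonaute proteins carry the mature strand to messenger RNAs that pair with its seed, bases 2 to 8 from the 5′ end, and lower their output. In human chondrocytes miR-27b is known to repress the collagenase MMP13 and miR-24 the cell cycle inhibitor CDKN2A. TSC1, together with TSC2, holds back the growth kinase complex mTORC1.

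On the GRCm38.p6 assembly, RefSeq places the a cluster on the plus strand of chr8, with Mir23a at chr8:84208518-84208592, Mir27a at chr8:84208672-84208758 and Mir24-2 at chr8:84208815-84208921. These 3 hairpins span 404 bases and overlap no protein-coding gene in that annotation. The b cluster lies on the plus strand of chr13, with Mir23b at chr13:63300484-63300557, Mir27b at chr13:63300712-63300784 and Mir24-1 at chr13:63301208-63301275, and spans 792 bases inside the aminopeptidase gene Aopep (chr13:62964893-63326096). Each Mir24 hairpin has a miR-3074 hairpin annotated on the opposite strand.

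Mature sequences were found in the RefSeq table for 6 of the 7 miRNAs. They are shown to make clear which members can repress the same messages and which can be told apart by a probe. The seed is in capitals and each sequence reads 5′ to 3′.
mmu-miR-23a-3p: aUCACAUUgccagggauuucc
mmu-miR-27a-3p: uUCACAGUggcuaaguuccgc
mmu-miR-27b-3p: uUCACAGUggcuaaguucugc
mmu-miR-24-3p: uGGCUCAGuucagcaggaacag
mmu-miR-24-2-5p: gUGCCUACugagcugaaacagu
mmu-miR-24-1-5p: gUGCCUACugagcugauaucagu
miR-27a-3p and miR-27b-3p share their seed and differ by C19U, counted from the 5′ end. Both Mir24 hairpins give the identical miR-24-3p, so its signal cannot be assigned to a cluster. Their 5p arms share the first 16 bases, seed included, and differ in what follows, so these arms carry the label of 1 cluster each.

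For the miR-23 pair, the hairpins show the difference. The stretch paired with the longest array probe is in capitals.
Mir23a hairpin: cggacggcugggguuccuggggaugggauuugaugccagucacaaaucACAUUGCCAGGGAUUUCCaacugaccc
Mir23b hairpin: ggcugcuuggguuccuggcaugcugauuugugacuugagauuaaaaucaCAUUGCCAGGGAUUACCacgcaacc
The seed letters of miR-23a-3p also occur in the Mir23b hairpin. Array probes bind the 3′ end of the mature strand, where the paralogs differ, and matched probes of a pair differ by 1 base, shown in capitals in these probe sequences.
miR-23a-3p probe: ggAaatccctggcaatg
miR-23b-3p probe: ggTaatccctggcaatg
miR-27a-3p probe: gcGgaacttagccactg
miR-27b-3p probe: gcAgaacttagccactg
Counted from the 5′ end of the probe, the miR-23 probes differ by A3T and the miR-27 probes by G3A. How much of a paralog each probe also binds was not tested.

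**Figure D1:**
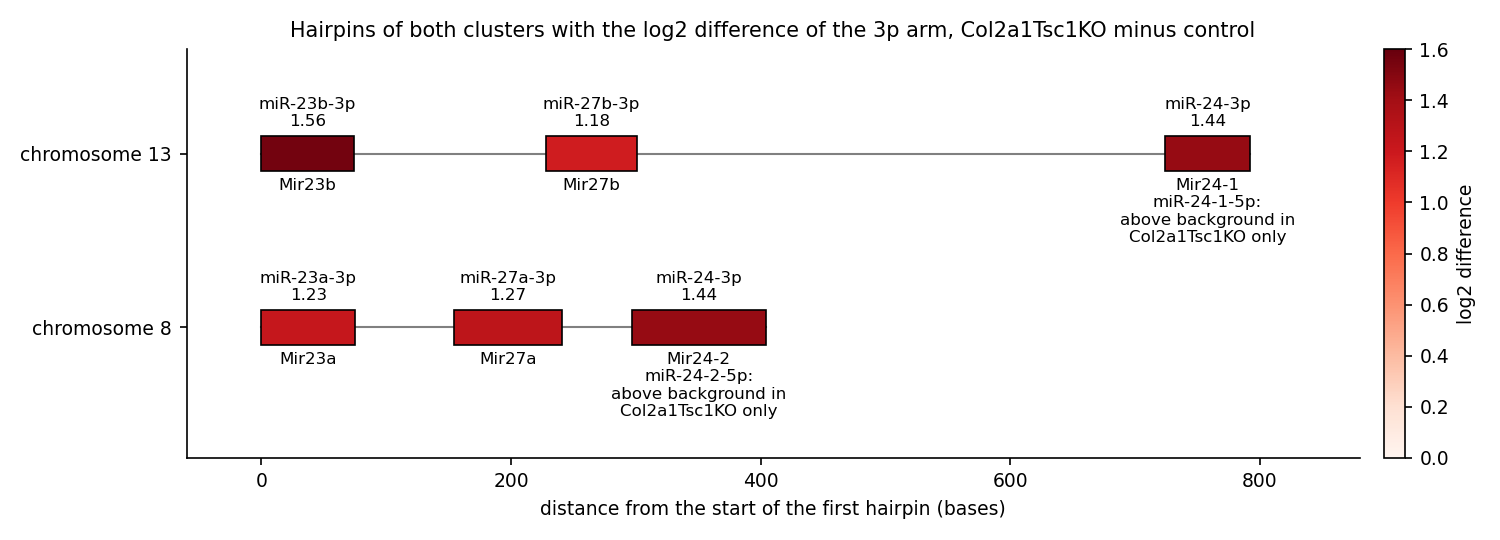
The hairpins of both clusters are drawn to scale by distance in bases from the start of the first hairpin, coloured by the log2 difference of the 3p arm, Col2a1Tsc1KO minus control. miR-24-3p appears in both rows with 1 value, 1.44, because both hairpins make it.

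All 5 of the 3p arms were brighter on the Col2a1Tsc1KO array, by 2.26-fold to 2.95-fold after the arrays were brought to a common 75th percentile, taken over 476 probes for which the scanner software marked over 50% of spots as well above background on each array; a miRNA with such a probe counts as measured on both. Their median log2 difference, Col2a1Tsc1KO minus control, was 1.27, which is 2.42-fold. The median over all 257 miRNAs measured on both arrays was -0.22. The miR-24 5p arms were well above background on the Col2a1Tsc1KO array alone. The unit of the values below is the background-subtracted spot intensity, before scaling, unless a log2 difference is named. Each miRNA had 2 probes of 20 spots, of which 13 to 20 were usable, and an error given as SE is over these spots and holds technical noise only. Fewer cells of a type and less RNA per cell cannot be told apart in such bulk samples.

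miR-23a-3p, known in human cells as a repressor of glutaminase, opens the a cluster. Its 17-base probe read 1830 at the lowest, 1940 at the median and 2030 at the highest of 17 spots on the Col2a1Tsc1KO array, against 594, 638 and 668 over 17 spots on the control array. The 18-base probe read 5640, 5970 and 6640 over 19 spots on the Col2a1Tsc1KO array, against 1810, 1905 and 1990 over 18 spots on the control array. Both probes were higher in Col2a1Tsc1KO with no overlap of spots, and the scaled log2 difference was 1.23 ± 0.01 (SE), or 2.34-fold.

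miR-23b-3p, its paralog in the b cluster, had the highest difference of the 5. The 17-base probe read 2980, 3140 and 3410 (lowest, median and highest of 19 spots) on the Col2a1Tsc1KO array, against 765, 806 and 833 over 19 spots on the control array. Its 16-base probe read 1080, 1160 and 1240 over 19 spots on the Col2a1Tsc1KO array, against 272, 295 and 321 over 19 spots on the control array. The spots of the arrays did not overlap for either probe, and the scaled log2 difference was 1.56 ± 0.01 (SE), or 2.95-fold.

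miR-27a-3p and miR-27b-3p are best known for restraining fat cell formation, with Pparg among their targets. For miR-27a-3p the 16-base probe read 1180, 1300 and 1360 over 18 spots on the Col2a1Tsc1KO array, against 397, 411.5 and 441 over 20 spots on the control array. Its 17-base probe read 2970, 3160 and 3290 over 16 spots on the Col2a1Tsc1KO array, against 904, 951 and 990 over 19 spots on the control array. The miR-27a-3p spots were higher in Col2a1Tsc1KO with no overlap, and its scaled log2 difference was 1.27 ± 0.01 (SE), or 2.42-fold. For miR-27b-3p the 17-base probe read 1320, 1730 and 1860 over 19 spots on the Col2a1Tsc1KO array, against 516, 563 and 584 over 19 spots on the control array. Its 16-base probe read 377, 396 and 422 over 13 spots on the Col2a1Tsc1KO array, against 120, 130 and 145 over 17 spots on the control array. Again no spots overlapped, and the scaled log2 difference of miR-27b-3p was 1.18 ± 0.02 (SE), or 2.26-fold, the lowest of the 5.

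miR-24-3p is known as a brake on cell cycle genes and closes both clusters. Its 17-base probe read 2990, 3140 and 3220 over 17 spots on the Col2a1Tsc1KO array, against 835, 879 and 916 over 19 spots on the control array. The 18-base probe read 3720, 4070 and 4200 over 17 spots on the Col2a1Tsc1KO array, against 1080, 1110 and 1140 over 20 spots on the control array. The arrays did not overlap, and the scaled log2 difference was 1.44 ± 0.01 (SE), or 2.72-fold.

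miR-24-2-5p, the other arm of the a cluster's Mir24-2 hairpin, was dim. The 16-base probe read 24.4, 31.5 and 38.9 over 17 spots on the Col2a1Tsc1KO array, where every spot was well above background, against -0.977, 5.52 and 17.1 over 19 spots on the control array, where none was. Its 17-base probe read 32.3, 44.4 and 51.2 over 20 spots on the Col2a1Tsc1KO array, all well above background, against 5.09, 9.97 and 15.5 over 19 spots on the control array, none of them so. Since the control gives only a bound, the lowest intensity well above background on that array took its place, and miR-24-2-5p was at least 1.31-fold higher in Col2a1Tsc1KO after scaling.

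miR-24-1-5p, the matching arm in the b cluster, stayed close to background. Its 21-base probe read 15.9, 22.35 and 27.0 over 18 spots on the Col2a1Tsc1KO array, of which 72.2% were well above background, against -1.59, 2.87 and 10.3 over 19 spots on the control array, of which none was. The 20-base probe was above background on neither array, with -0.786, 5.23 and 13.2 over 20 spots on the Col2a1Tsc1KO array, against -4.55, 0.236 and 4.67 over 19 spots on the control array. Spots of the 20-base probe overlapped between the arrays, the 1 such case among 14 probes. Overlap was judged before scaling and was not counted over all probes of the array. A lack of overlap is therefore not shown to be particular to the members, and spots of 1 array are technical repeats. No fold is given for miR-24-1-5p, because its bound did not exceed 1. Being well above background on the Col2a1Tsc1KO array alone was shared by 39 of 1247 miRNAs, or 3.13%, and by both of the miR-24 5p arms.

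**Figure D2:**
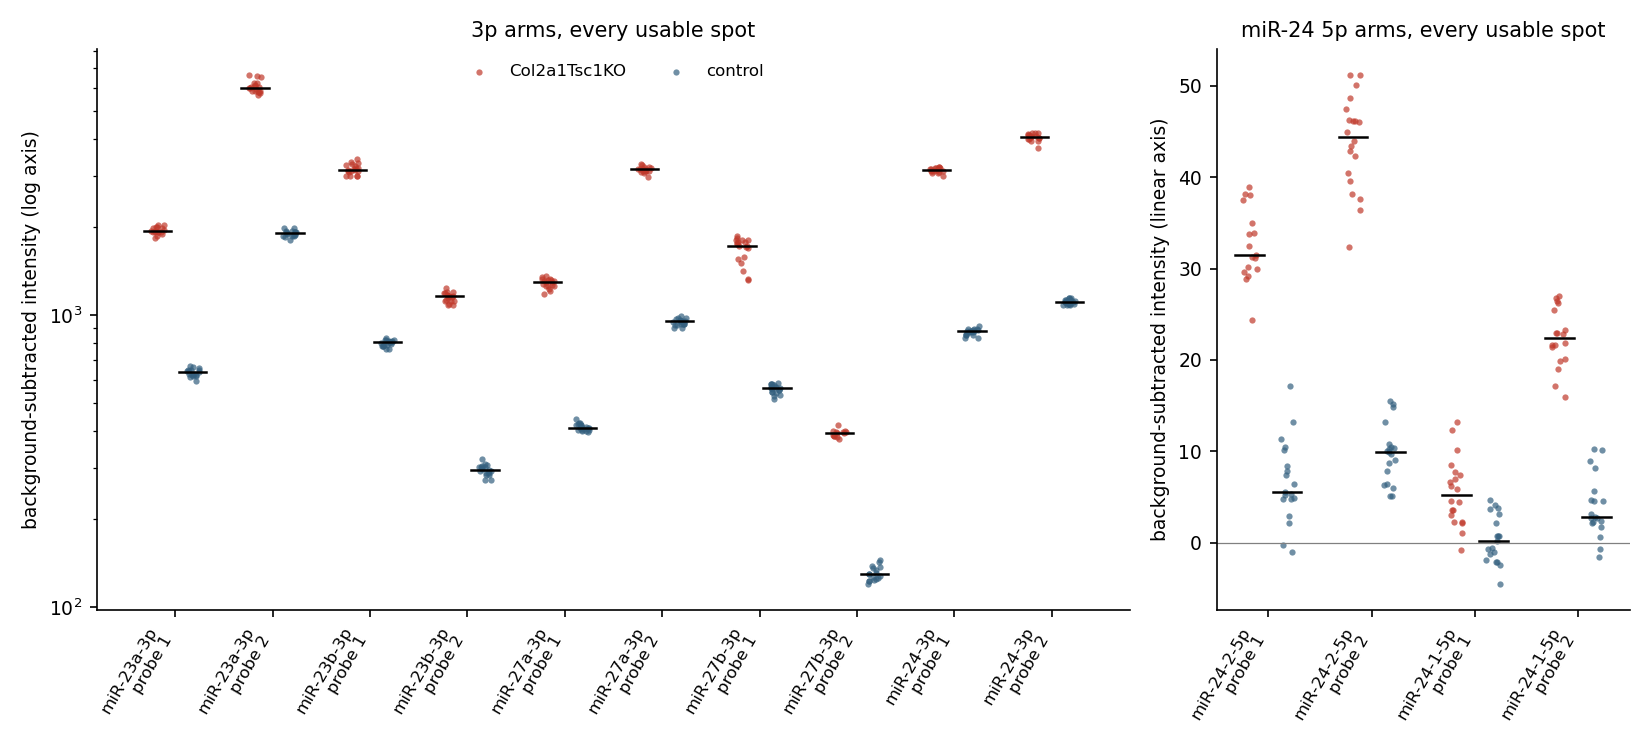
Background-subtracted intensity of every usable spot is plotted for each probe, on a log axis for the 3p arms and a linear axis for the miR-24 5p arms; black bars are medians over spots, and Col2a1Tsc1KO stands left of control. In 13 of 14 probes the 2 arrays do not overlap. Intensities are before scaling. How many of all probes on the array overlap was not counted, so this count is not shown to be particular to these probes.

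In the order of differences, miR-23b-3p stood first, followed by miR-24-3p, miR-27a-3p, miR-23a-3p and miR-27b-3p. The 2 probes of a member differed from one another by 0.015 to 0.096 on the log2 scale. The step of 0.11 ± 0.01 between miR-23b-3p and miR-24-3p and the step of 0.17 ± 0.01 between miR-24-3p and miR-27a-3p (SE over spots) exceeded that probe spread. The last steps, 0.05 ± 0.01 between miR-27a-3p and miR-23a-3p and 0.05 ± 0.02 between miR-23a-3p and miR-27b-3p, lay within it, so these 3 miRNAs were not told apart. Of the 15 alternative settings tried, 6 left the gaps between members as they were (within 0.0001) and say nothing about their order. Over the other 9, miR-23b-3p minus miR-24-3p lay between 0.08 and 0.32. The setting called normexp is a background correction with an added offset of 50, followed by quantile normalization. miR-24-3p minus miR-27a-3p was -0.02 with quantile normalization, 0.02 with normexp and 0.01 in the deposited log2 table, and miR-27b-3p stood above miR-24-3p in the first and the last of these. No order below miR-23b-3p is therefore given.

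Between paralogs, the log2 difference of miR-23b-3p exceeded that of miR-23a-3p by 0.33 ± 0.02 (SE), which is 1.26-fold. It lay between 0.29 and 0.48 over the 9 alternatives that could change it. For miR-27b-3p minus miR-27a-3p the value was -0.10 ± 0.02, and it became 0.12 both under quantile normalization and in the deposited log2 table, so no order of the miR-27 paralogs is given. Within the b cluster, miR-23b-3p exceeded miR-27b-3p by 0.38 ± 0.03, and by 0.07 to 0.44 over those 9 alternatives. In the a cluster, miR-23a-3p minus miR-27a-3p was -0.05 ± 0.01, and -0.21 to -0.03 over the same 9, a gap within the spread between probes in the main setting.

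Against the background of the whole array, 5 of the 5 measured 3p arms were at least 2-fold higher in Col2a1Tsc1KO, where 40 of 257 miRNAs, or 15.6%, were. The count of the 5 dropped to 3 with quantile normalization, to 1 with normexp and to 3 in the deposited log2 table. Of all miRNAs, 40 of 257, 16 of 257 and 51 of 304 passed in these settings, in that order. At least 2-fold lower were 0 of the 5, where 45 of 257, or 17.5%, were. The 3p arms ranked 8 (miR-23b-3p), 15 (miR-24-3p), 27 (miR-27a-3p), 31 (miR-23a-3p) and 34 (miR-27b-3p) from the highest of 257. Without scaling, the members' median was 1.68, or 3.21-fold, and the median of all 257 was 0.19. Then 59 of 257, or 23%, were at least 2-fold higher and 13 were at least 2-fold lower. The distance between these medians, 1.49, cannot change with such a scaling. Shares were taken of the summed intensity of all probes well above background on an array. The members held 5.79% on the Col2a1Tsc1KO array and 2.43% on the control array. The Col2a1Tsc1KO share includes the dim miR-24 5p probes well above background there, while the control share holds 3p arms only. Probes differ in brightness, so this is no share of molecules.

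**Figure D3:**
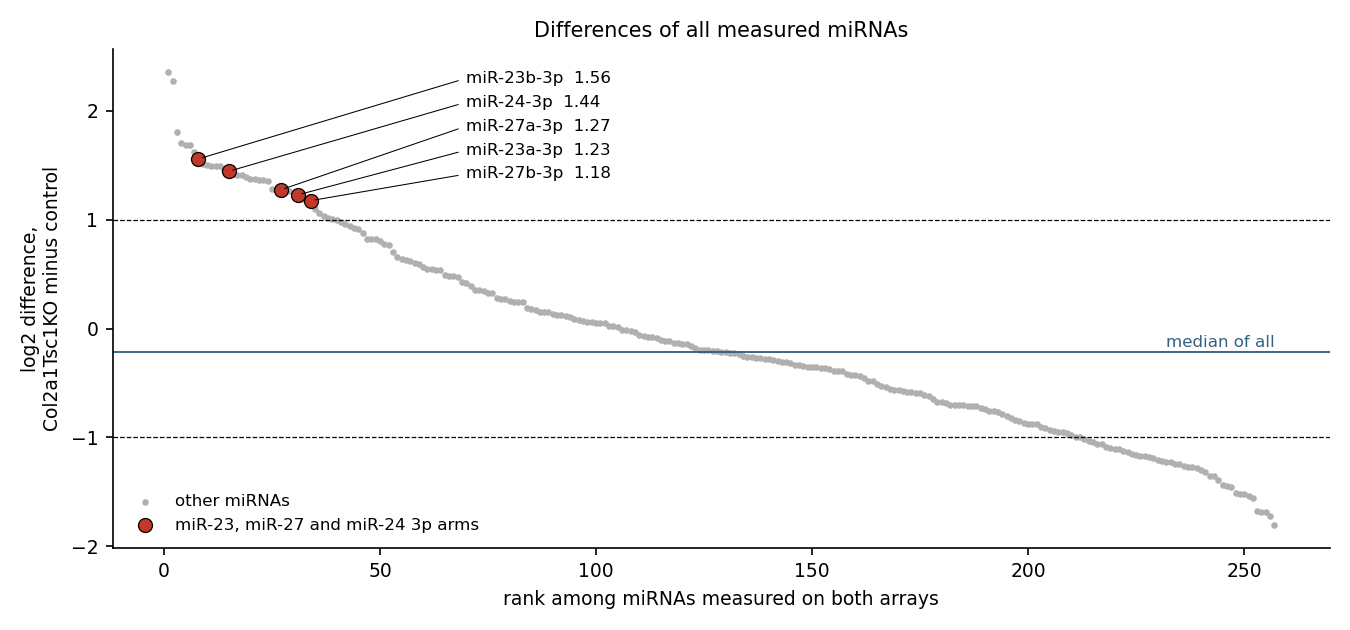
The log2 difference, Col2a1Tsc1KO minus control, of the 257 miRNAs measured on both arrays is plotted against rank; dashed lines mark 2-fold. The 5 red points, between 1.18 and 1.56, lie among the 34 highest values, while the median of all is -0.22.

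The arrays as a whole differed modestly in brightness. Well above background were 21.1% of miRNA spots on the Col2a1Tsc1KO array and 19.6% on the control array, with none saturated. The median intensity of negative-control spots was 4.93 on the Col2a1Tsc1KO array and 5.02 on the control array. The log2 75th percentile used for scaling was 8.88 on the Col2a1Tsc1KO array and 8.47 on the control array, while the 4 spike-in RNAs differed by -0.06 to 0.16 on the unscaled log2 scale, with a mean of 0.01.

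The passenger strands and seed relatives behaved as follows. The other arms of the hairpins, miR-23a-5p, miR-23b-5p, miR-27a-5p and miR-27b-5p, were well above background on neither array, and neither were the 3 arms of the antisense miR-3074 hairpins. In the RefSeq table of 1679 mature miRNAs, the miR-23a-3p seed occurs once and the miR-27 seed only in its pair. That table has no entry for miR-23b-3p, whose hairpin also holds the miR-23a-3p seed letters. The miR-24-3p seed is shared with miR-5124b, miR-6369, miR-6410 and miR-6413, of which none was well above background on either array. miR-128-3p carries the miR-27 seed moved by 1 base, at its first 7 bases, in capitals here.
mmu-miR-128-3p: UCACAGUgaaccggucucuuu
Its mean intensity was 43.8 on the Col2a1Tsc1KO array and 46.3 on the control array, with a scaled log2 difference of -0.48 ± 0.04 (SE) and an unscaled one of -0.07. It was below 0 under 14 of 15 alternatives and 0.02 with the software's total gene signal, and so lay below both miR-27 members in each.

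The 5 miRNAs whose difference lay closest to the members' median were miR-101c at 1.27 ± 0.03, miR-99a-5p at 1.28 ± 0.02, let-7b-5p at 1.26 ± 0.01, miR-22-3p at 1.29 ± 0.01 and miR-181a-5p at 1.23 ± 0.02 (scaled log2 difference ± SE). This likeness is over 1 pair of samples. The miR-181c and miR-181d hairpins lie upstream of Mir23a on the same chromosome, ending 29557 and 29731 bases before it, and both were named after their values were seen. miR-181c-5p was well above background on the Col2a1Tsc1KO array alone and at least 1.28-fold higher there. miR-181d-5p had a scaled log2 difference of 0.56 ± 0.05, below that of each 3p arm of the clusters in the main setting. It rests on 1 probe, at 22.7 on the control array, where the lowest probe intensity well above background was 21.6. Over 14 alternatives it lay between 0.08 and 1.36.

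Some cell type markers lay on the same side as the clusters and others did not. Of the chondrocyte miRNAs, the arms of miR-140 and miR-455, 4 of 4 were measured on both arrays, 3 were at least 2-fold higher in Col2a1Tsc1KO, beside 15.6% of all measured miRNAs, and the median of the 4 was 1.19. Of them 1 passed 2-fold with quantile normalization, 0 with normexp, 2 with the brightest probe and 2 in the deposited log2 values. Of all miRNAs, 40 of 257, 16 of 257, 38 of 257 and 51 of 304 passed in these settings, in that order. miR-140-5p, the abundant cartilage miRNA, had a mean intensity of 3111 on the Col2a1Tsc1KO array and 922 on the control array, a scaled log2 difference of 1.38 ± 0.01 (SE). Its partner arm miR-140-3p stood at 1.01 ± 0.01 and miR-455-3p at 1.71 ± 0.05, while miR-455-5p had -0.03 ± 0.14, so chondrocyte markers were present on both arrays. Each miR-455 value rests on 1 probe. That of miR-455-3p read 27.8 on the control array, where the lowest probe intensity well above background was 21.6. Summed over the list, mean probe intensity was 12822 on the Col2a1Tsc1KO array and 4272 on the control array.

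Mesenchymal markers of smooth muscle and fibroblasts also lay high. Of this list 3 of 4 were measured on both arrays, all 3 past 2-fold upward, beside 15.6% of all, the median being 1.46 and summed intensities of 10260 in Col2a1Tsc1KO and 2742 in control. They were miR-143-3p at 1.37 ± 0.02, miR-199a-3p at 1.46 ± 0.01 and miR-214-3p at 2.36 ± 0.03. Of the 3, 1 stayed past 2-fold with normexp and 2 with the mean minus local background. Of all 257 miRNAs, 16 and 32 were past it in these settings. miR-145a-5p was well above background on the Col2a1Tsc1KO array alone.

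Blood and vessel markers did not move as 1 group. Red cell miRNAs were measured for 2 of 4, with miR-451a at 0.55 ± 0.01 and miR-144-3p at 1.51 ± 0.04. Of these 1 was past 2-fold upward, beside 15.6% of all. The median was 1.03, with summed intensities of 8335 in Col2a1Tsc1KO and 4171 in control. With normexp and with the mean minus local background 0 passed, and with the total gene signal 2 did. Of all miRNAs, 16 of 257, 32 of 257 and 80 of 304 passed in these settings, in that order. Only the Col2a1Tsc1KO array had miR-144-5p well above background, and miR-486-5p was not analysed here. With quantile normalization, with or without normexp, miR-451a was below 0, the lowest value being -0.02. The endothelial arm miR-126-3p stood at 0.35 ± 0.01 and its partner miR-126-5p at 0.14 ± 0.04, neither past 2-fold, beside 15.6% of all upward. Their summed intensities were 4535 in Col2a1Tsc1KO and 2673 in control. Each went below 0 under at least 1 alternative, miR-126-3p to -0.13 and miR-126-5p to -0.04.

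Leukocyte and skeletal muscle markers lay on the other side. Of the leukocyte miRNAs 4 of 4 were measured, with a median of -0.77, 1 at least 2-fold lower, beside 17.5% of all, and summed intensities of 11444 in Col2a1Tsc1KO and 18269 in control. Without scaling 0 were lower and 1 was higher, beside 13 and 59 of all 257, and the leukocyte median was -0.36. The leukocyte counts were the same with the 75th percentile of every probe, with spike-in scaling and with the total gene signal freed of its running sum. At least 2-fold lower were 2 with quantile normalization, 2 with normexp and 2 in the deposited log2 values. Of all miRNAs, 35 of 257, 9 of 257 and 54 of 304 were so, in that order. The deposited values also held 1 that was higher, beside 51 of 304. In the main setting the myeloid miR-223-3p had -1.17 ± 0.01, miR-142-3p had -0.95 ± 0.03, miR-142-5p had -0.59 ± 0.03 and miR-150-5p had 0.64 ± 0.06. Skeletal muscle miRNAs, measured for 4 of 4, had a median of -0.97 and summed intensities of 2380 in Col2a1Tsc1KO and 3353 in control. miR-1a-3p stood at -0.94 ± 0.02, miR-133a-3p at -0.99 ± 0.02, miR-133b-3p at -0.996 ± 0.02 and miR-206-3p at 0.05 ± 0.08. None was past 2-fold in the main setting, beside 15.6% of all upward and 17.5% downward. With quantile normalization 1 of the 4 was at least 2-fold lower, beside 35 of 257 of all miRNAs. In the deposited log2 values 1 of the 4 was, beside 54 of 304. miR-206-3p went below 0 under 3 of 14 alternatives, to -0.23. miR-150-5p did so under 1 of 15, the total gene signal, which holds a running sum for some miRNAs. The part of a different cell make-up in the differences of the clusters was not tested.

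**Figure D4:**
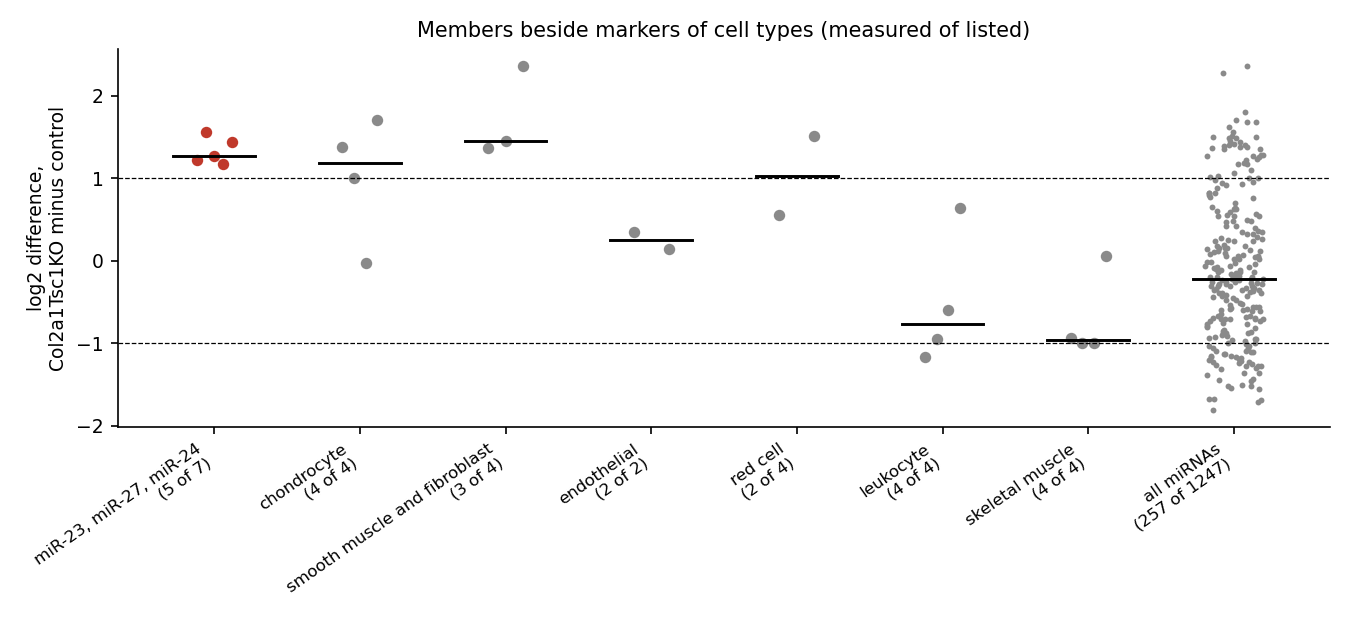
Each point is the scaled log2 difference, Col2a1Tsc1KO minus control, of 1 miRNA measured on both arrays, grouped by cell type list; black bars are medians and dashed lines mark 2-fold. The members lie at 1.18 to 1.56. Medians are 1.19 for the chondrocyte, 1.46 for the smooth muscle and fibroblast and 1.03 for the red cell list. Chondrocyte points spread from -0.03 to 1.71, and smooth muscle and fibroblast points reach 2.36. All leukocyte and skeletal muscle points lie below the members.

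The direction of the 5 differences did not depend on the processing settings run, but their size did. Over the 15 alternatives, miR-23b-3p lay between 1.19 and 2.06 and was at least 2-fold higher in all 15. miR-24-3p lay between 0.96 and 1.94, miR-27a-3p between 0.94 and 1.79, miR-27b-3p between 0.93 and 1.67, and miR-23a-3p between 0.78 and 1.74. The members' median stayed above the median of all miRNAs by 0.95 to 1.55.

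**Figure D5:**
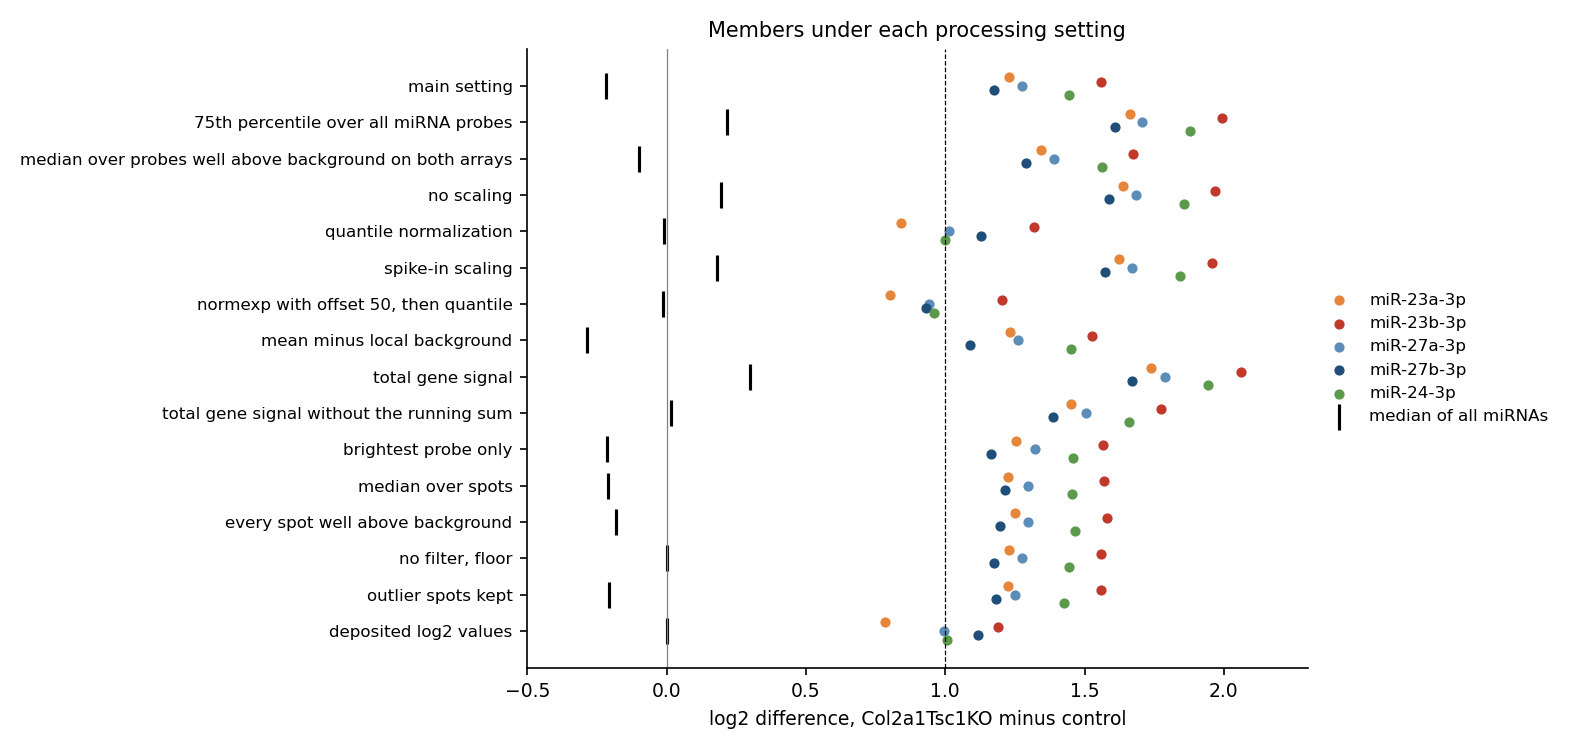
The log2 differences, Col2a1Tsc1KO minus control, of the 5 3p arms are plotted for each processing setting beside the median of all miRNAs, with a dashed line at 2-fold. All points lie right of 0, between 0.78 and 2.06, and they lie lowest under normexp, quantile normalization and the deposited log2 values.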

How the data were processed

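Agilent Feature Extraction 10.7 produced the scanner files, per the submitters' processing notes and the file headers. The deposited intensity of a spot is background-subtracted and not scaled between arrays. A deposited log2 table, whose making the sources used here do not describe, served as an alternative; its column medians, -3.32 for Col2a1Tsc1KO and -3.26 for control, are also its floors, and its direction followed the scanner intensities. Control and outlier spots were dropped, log2 intensities were averaged over the spots of a probe, and each array's 75th percentile was subtracted, taken over the 476 probes with over 50% of spots well above background on both arrays. A miRNA's difference is the mean over such probes. With 1 array per group, an absolute log2 difference of 1 served only as a threshold for counts. Python 3.11.15, pandas 2.3.3, R 4.3.3 and limma 3.58.1 were used, and the steps were tested on simulated data. Coordinates and RNA sequences are from RefSeq on GRCm38.p6, probe sequences from the scanner files.

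Named miRNAs were the members, the other arms, antisense arms and seed relatives of their hairpins, the 5 closest to the members' median, and cell type markers. The members and lists were chosen with earlier results of these data known.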

Additional observations from a re-analysis of the deposited data

How the results depend on the processing

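Under all 15 alternatives the members' median stayed above 0. With the 75th percentile of every miRNA probe it was 1.71. It was 1.39 with median scaling, 1.68 unscaled, 1.67 with spike-in scaling, 1.01 with quantile normalization, 0.94 with normexp and then quantile normalization, 1.79 with the total gene signal, 1.51 with that total freed of its running sum, 1.32 with the brightest probe, 1.23 with a floor in place of the filter (7 members) and 1.005 in the deposited log2 table. Of the 5 members, 3 were at least 2-fold higher with quantile normalization, 1 with normexp and 3 in the deposited table, and 5 otherwise. miR-23b-3p minus miR-23a-3p was 0.48 with quantile normalization, 0.40 with normexp, 0.29 with the mean minus local background and 0.41 in the deposited table. miR-27b-3p minus miR-27a-3p turned to 0.12 with quantile normalization and 0.12 in the deposited table, and was -0.0088 with normexp, -0.17 with the mean minus local background and -0.16 with the brightest probe. Among all miRNAs, those at least 2-fold higher numbered 16 with normexp and 80 with the total gene signal, and those at least 2-fold lower numbered 13 with the 75th percentile of every probe, 13 unscaled, 13 with spike-in scaling, 9 with normexp and 24 with the total gene signal. Scaling moved the median of all miRNAs by 0.43 with the 75th percentile of every probe, 0.41 without scaling, 0.40 with spike-ins, 0.21 with quantile normalization and 0.12 with the median. The shift without scaling equals the gap of 0.41 between the 75th percentiles that the main setting subtracts. Why the arrays differ in these percentiles was not tested. No paired analysis was possible because each group had 1 array. Signal over background limits the miR-24 5p arms, and the number of arrays limits all differences.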

Other observations

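The software's total gene signal for miR-24-1-5p on the Col2a1Tsc1KO array was 1710, where the sum over its own probes was 8.82; the excess of 1701.17 equals the total of miR-23b-3p on that array. On the control array the total of miR-24-1-5p was 2.43. In the deposited log2 table miR-24-1-5p stands at 3.05 in Col2a1Tsc1KO and at the floor of -3.26 in control, and miR-24-2-5p at 4.80 in Col2a1Tsc1KO and at the same floor in control. That table gave log2 differences of 1.19 for miR-23b-3p, 1.12 for miR-27b-3p, 1.005 for miR-24-3p, 0.99 for miR-27a-3p and 0.78 for miR-23a-3p. It thus puts miR-27b-3p after miR-23b-3p, where the scaled scanner intensities put it last.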
